A study of Mus musculus with 90 samples.

Results

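The aorta was compared with the vein in a 15-tissue RNA-sequencing atlas of untreated female mice, C57BL/6 and aged 10 weeks by the sample labels and C57BL/6J of a younger age by the study's methods. Of the 90 libraries, 12 enter the comparison, namely the 6 labelled aorta and the 6 labelled vein. Each vessel has 3 estrus and 3 diestrus libraries. By the study's methods 3 mice per phase gave all tissues, so that aorta and vein come from the same mice, but no source says that equal replicate numbers are 1 mouse. With the phase read from vaginal smears, both phases are pooled and phase is kept as a term in the fit. The labels do not say which vein was taken, nor how the surrounding tissue was removed, and whole vessel pieces rather than sorted cells were sequenced. Members of the comparison were chosen by tissue label alone. The values are FPKM, fragment counts scaled by transcript length and library depth, and every fold change below is the difference aorta minus vein in mean log2(FPKM + 1), a scale that understates the change of genes with low values.

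An artery and a vein share a wall of endothelium, smooth muscle and a fibrous outer coat, but the artery carries a thicker muscular and elastic middle layer. Outside the wall lie fat, nerve fibres and, close to the heart, sleeves of heart muscle that extend onto the great vessels. Postganglionic sympathetic neurons sit in ganglia beside the large vessels and release noradrenaline and neuropeptide Y onto smooth muscle. Since RNA from all of these cells ends up in a library of a dissected vessel, more cells of a type and more RNA per cell cannot be told apart here.

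Read counts are not given. The spacing of the lowest values corresponds to roughly 11800000 to 12200000 counted fragments per aorta library and 14100000 to 15200000 per vein library. Only 56.2 to 68.6% of the low values used lay within 0.2 reads of a whole number, so that these ranges are approximate. Before any comparison, 3 libraries stood apart. Aorta estrus replicate 1 correlated with the other 5 aorta libraries at Pearson's r of 0.832 to 0.871 across genes, against a median r of 0.962 to 0.987 for each of those 5 with its own tissue. Its 28 contractile smooth muscle genes summed to 34175 FPKM, against 5233 to 7419 in the other 5, and its 14 fat cell genes to 4061 FPKM, against 26179 to 29369. Aorta diestrus replicate 3 held 2730 FPKM of 11 lung and airway genes, and no other aorta library held more than 8.26 FPKM of them. Vein estrus replicate 3 held 243 FPKM of 10 B cell genes, while no other vein library exceeded 8.99 FPKM. Each result was therefore also computed without aorta estrus replicate 1 and vein estrus replicate 3, written below as the 10-library comparison, and the part of these libraries in a result was not tested beyond that.

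The vessel labels were read against markers of the wall. Acta2, smooth muscle actin, ranged from 669 to 7925 FPKM in the aorta and from 643 to 2030 in the vein. Pecam1, an adhesion protein of endothelial cells, ranged from 83.4 to 108 FPKM in the aorta and from 126 to 238 in the vein. Both tissues thus held smooth muscle and endothelium. Fat cell genes were abundant in both as well, with medians of 26743 FPKM in the aorta and 29784 FPKM in the vein for the sum over the list, so that both sets of libraries held RNA of fat.

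**Figure D1:**
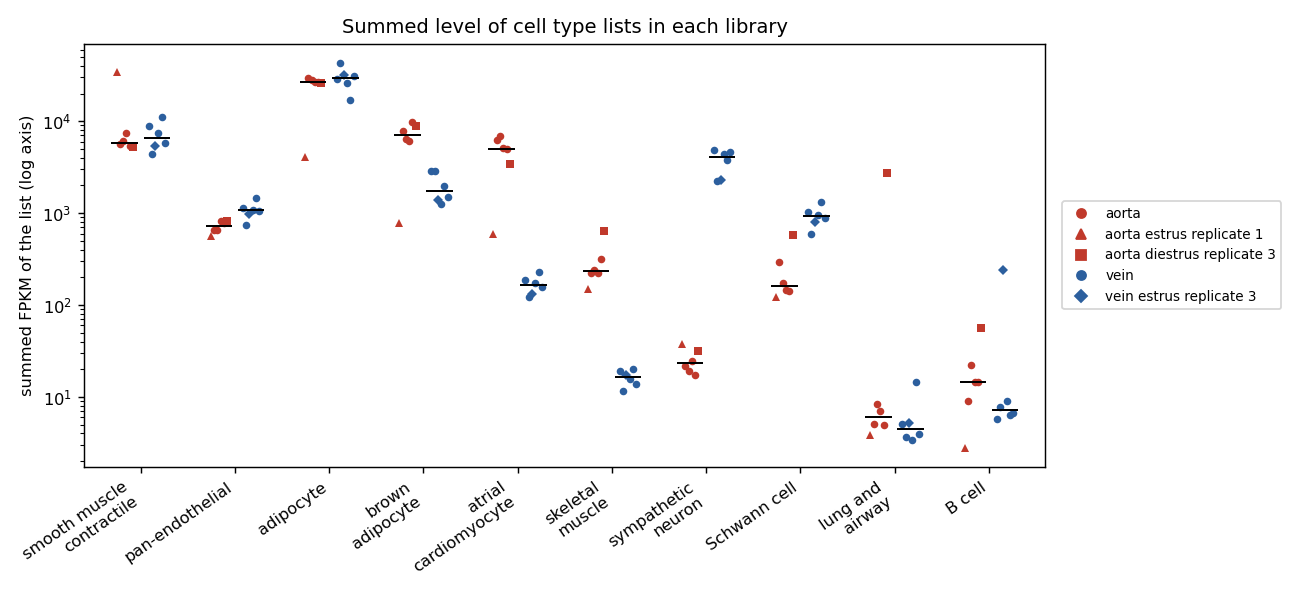
Summed FPKM of 10 marker lists in each library, on a log axis, with aorta in red, vein in blue, and a short black line at the median of 6 libraries. Triangles, squares and diamonds mark the 3 libraries that stood apart. The sympathetic neuron, Schwann cell, atrial and skeletal muscle lists separate the vessels, whereas those of smooth muscle, endothelium and fat cells overlap or lie close together.

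The test covered 13225 genes whose average over the 12 libraries reached 1 FPKM. Of these, 243 were higher in the aorta (1.84%) and 1206 higher in the vein (9.12%), by limma with a Benjamini-Hochberg adjusted p of at most 0.05 and an absolute log2 fold change that reached 1. Both directions together make up 11% of the genes tested, and each count of list members below stands against these shares. The 6 aorta values did not overlap the 6 vein values for 159 of the 243 genes and for 1009 of the 1206. Over all 13225 tested genes, called or not, this held for 1935. The median log2 fold change of all tested genes was -0.108. Without aorta estrus replicate 1 alone, 464 genes were higher in the aorta and 1321 higher in the vein. In the 10-library comparison the counts were 451 and 1315, and they included 225 of the 243 and 1159 of the 1206 genes first called.

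**Figure D2:**
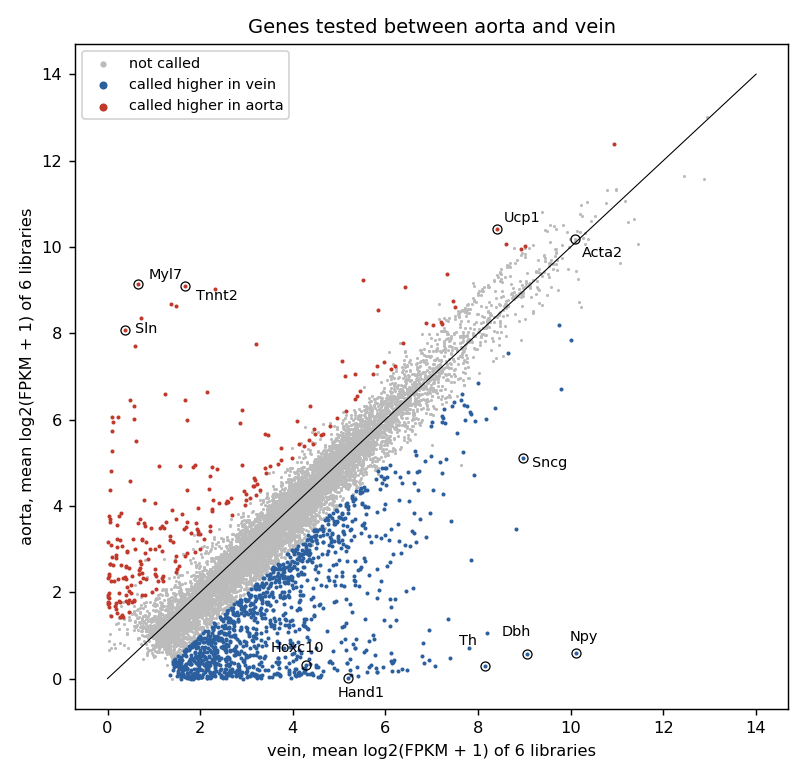
Mean log2(FPKM + 1) of each tested gene over the 6 vein libraries (x axis) and the 6 aorta libraries (y axis). Red points are the 243 genes called higher in the aorta and blue points the 1206 called higher in the vein. Neuronal genes such as Npy, Dbh and Th sit at the lower right, heart muscle genes such as Myl7, Tnnt2 and Sln at the upper left, and Acta2 near the diagonal.

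The 12 genes with the largest excess in the vein were all genes of neurons. Npy (Entrez 109648), which encodes neuropeptide Y, was listed at 0 to 1.11 FPKM in the aorta with a median of 0.615, and at 619, 1316 and 1644 FPKM as lowest, median and highest value in the vein. The groups were far apart, and within the vein the estrus replicates 2 and 3 were the lowest. The log2 fold change was -9.54 ± 0.243 (SE, n = 6 and 6), with a limma adjusted p of 8.2e-10. The enzymes that build noradrenaline followed the same order. Th, tyrosine hydroxylase and the first step of the pathway, ranged from 0.05 to 0.40 FPKM (median 0.195) in the aorta and from 173 to 402 (median 327) in the vein. Ddc, the decarboxylase that makes dopamine, had medians of 0.295 and 130 FPKM. Dbh, which turns dopamine into noradrenaline, had medians of 0.545 and 621 FPKM. None of these 3 overlapped between the vessels, with log2 fold changes of -7.86 for Th, -6.48 for Ddc and -8.49 for Dbh. Pnmt, which would turn noradrenaline into adrenaline and marks chromaffin cells, did not share this pattern, because it stayed at 0 to 0.39 FPKM in the vein and 0.30 to 2.30 FPKM in the aorta and fell below the limit for testing.

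**Figure D3:**
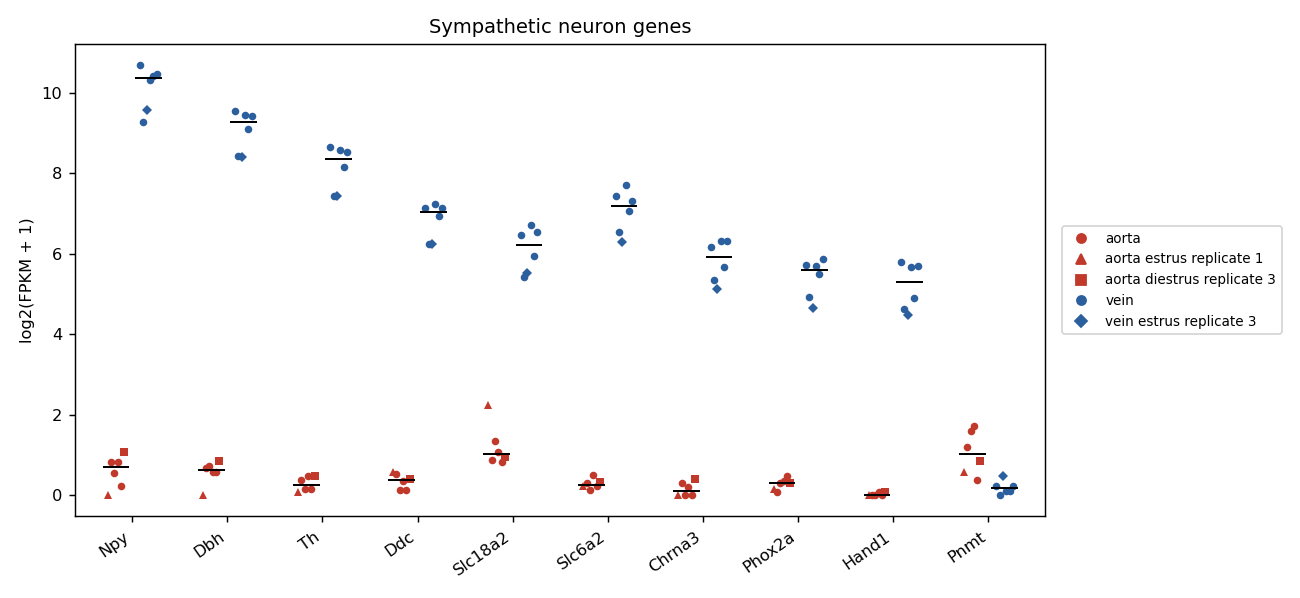
log2(FPKM + 1) of 10 genes of sympathetic neurons in every library, aorta in red and vein in blue, with the median of 6 libraries as a black line. All genes but Pnmt lie higher in each vein library than in any aorta library, and vein estrus replicate 3 (diamond) together with another vein library forms the lower end in most of them.

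Genes for handling and sensing the transmitter were higher in the vein too. Slc6a2, the noradrenaline transporter that returns transmitter to the nerve ending, ranged from 78.0 to 210 FPKM (median 146) in the vein and did not exceed 0.41 in the aorta. Slc18a2, which loads it into vesicles, had a vein median of 74.2 FPKM and an aorta median of 1.02, with the highest aorta value, 3.75 FPKM, in estrus replicate 1. Chrna3, a subunit of the acetylcholine receptor through which ganglion cells receive their input, had medians of 60.3 FPKM in the vein and 0.07 FPKM in the aorta. Htr3a, a serotonin-gated channel, differed by -6.14 ± 0.203 on the log2 scale. Genes of the neuronal skeleton and release machinery stood among the leading genes as well, with vein medians of 344 FPKM for the tubulin Tubb3, 259 for the filament protein Prph, 185 for the membrane fusion protein Snap25, 127 for the microtubule regulator Stmn3 and 137 for Pcsk1n, an inhibitor of peptide-processing enzymes.

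Over the list of 16 sympathetic neuron and chromaffin cell genes, all 15 that passed the filter were called higher in the vein, with a median log2 fold change of -5.68 against -0.108 for all tested genes and 9.12% of all tested genes called in that direction. The summed level ran from 17.1 to 37.9 FPKM in the aorta (median 23.4) and from 2215 to 4870 FPKM in the vein (median 4123). The median did not depend on the libraries that stood apart, since it was -5.77 in the 10-library comparison with the same 15 genes called. Transcription factors that specify these neurons had the same direction. Phox2a, a homeodomain factor of noradrenergic neurons, had medians of 0.22 FPKM in the aorta and 47.4 in the vein, Hand1 medians of 0 and 39.5 FPKM, Hand2 medians of 2.95 and 82.6 FPKM, and Isl1 medians of 0.335 and 13.7 FPKM. Hand2 and Isl1 also act in the developing heart, and Hand2 had a median of 66.4 FPKM in the heart libraries of the same atlas, where the medians of Hand1 and Isl1 were 0.

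The upstream sequences of 2 genes of this list are shown because they hold the letters TGACGTCA, the full binding sequence of cyclic AMP response element-binding factors, known from the tyrosine hydroxylase promoter. Each is the 120 bases before the RefSeq start, written 5′ to 3′ on the gene's strand with the motif in capitals. For Th the window is chr7:142899996-142900115 of GRCm38.p6 (minus strand), with the motif starting 45 bases before the start, and for Chgb, which encodes a protein of secretory granules, it is chr2:132781522-132781641 (plus strand), with the motif 72 bases before.
Th: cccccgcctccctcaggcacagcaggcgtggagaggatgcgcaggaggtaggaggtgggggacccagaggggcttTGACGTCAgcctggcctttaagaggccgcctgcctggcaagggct
Chgb: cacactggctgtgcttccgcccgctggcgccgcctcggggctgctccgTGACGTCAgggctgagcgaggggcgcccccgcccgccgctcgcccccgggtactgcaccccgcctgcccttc

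Chgb had medians of 0.205 FPKM in the aorta and 65.9 FPKM in the vein. In promoter windows of 250 bases before to 50 after the start, TGACGTCA, which reads the same on both strands, occurred in 3 of the 11 list members with a window in the table (Chgb, Scg2 and Th). It occurred in 2.03% of all 27025 promoters, 3.47% of those of tested genes and 3.76% of those of genes called higher in the vein. The match is a description of these letters, and the motif was picked with the results known.

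Genes of Schwann cells, the glia that wrap and myelinate peripheral nerve fibres, were higher in the vein alongside the neuronal genes. Of 14 listed genes 13 were tested and 12 called higher in the vein, where 9.12% of all tested genes were called. The list's median log2 fold change was -1.94. The summed level ran from 121 to 578 FPKM in the aorta (median 159) and from 586 to 1310 FPKM in the vein (median 922). Aorta diestrus replicate 3 held the 578 FPKM, just under the lowest vein library, and no other aorta library exceeded 291 FPKM. Ngfr, a neurotrophin receptor found on both glia and sympathetic neurons, ranged from 0.18 to 3.30 FPKM in the aorta and from 74.2 to 179 in the vein. Pmp22 and Mbp, proteins of myelin, differed by -1.35 and -2.46. S100b, a calcium-binding protein of glia that fat cells also make, was the exception, with medians of 26.2 FPKM in the aorta and 22.1 FPKM in the vein (log2 fold change -0.09, limma adjusted p = 0.867).

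The 12 genes with the largest excess in the aorta were genes of striated, mainly heart, muscle. Myl7 (Entrez 17898), the atrial myosin regulatory light chain, had a lowest, median and highest value of 61.4, 849 and 1116 FPKM in the aorta and of 0, 0.505 and 1.73 FPKM in the vein. The lowest aorta library was estrus replicate 1, the other 5 lay between 607 and 1116, and no aorta value came near the vein. The log2 fold change was 8.47 ± 0.619 (limma adjusted p = 8.97e-07), and 9.06 in the 10-library comparison. Sln, sarcolipin, an atrial inhibitor of the calcium pump, had medians of 382 FPKM in the aorta and 0.275 FPKM in the vein. Myl4, the atrial essential light chain, had medians of 737 and 4.04 FPKM. Mybphl, a myosin-binding protein of atria, had medians of 96.1 and 0.06 FPKM. The sarcomere genes shared by all heart chambers were high as well. Tnnt2 and Tnni3, cardiac troponins T and I, had aorta medians of 708 and 572 FPKM and vein medians of 1.91 and 1.6 FPKM. Myh6, the alpha myosin heavy chain, had medians of 512 and 0.54 FPKM, and the oxygen store Mb had medians of 599 and 1.56 FPKM.

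**Figure D4:**
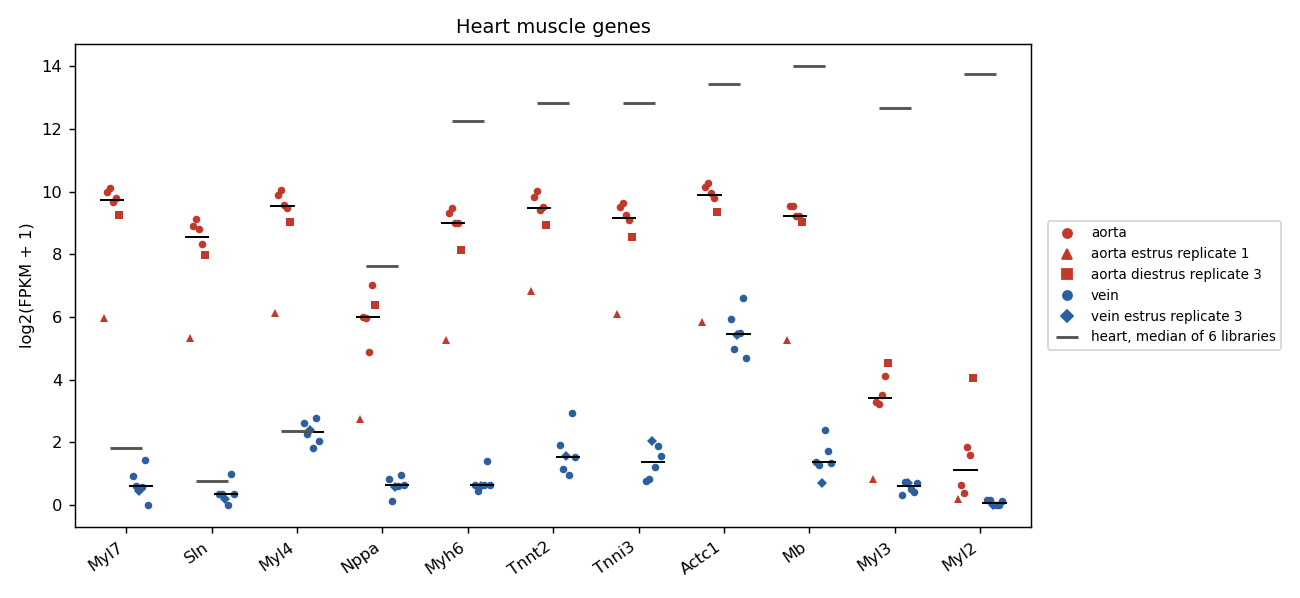
log2(FPKM + 1) of 11 heart muscle genes in every aorta (red) and vein (blue) library, with black lines at the medians of 6 and a grey line at the median of the 6 heart libraries. In the aorta the atrial genes Myl7, Sln and Myl4 exceed the heart median, while the ventricular genes Myl2 and Myl3 lie far below it.

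Of the 16 atrial and caval heart muscle genes, 15 were tested and 13 called higher in the aorta, where 1.84% of all tested genes were called. The list's median log2 fold change was 4.31. Its summed level was 588 FPKM in aorta estrus replicate 1, between 3464 and 6939 FPKM in the other 5 aorta libraries, and between 121 and 231 FPKM in the vein. The 2 members not called were Dkk3 (-0.44) and Gja5 (-0.44), a secreted protein and a gap junction protein that vessel walls also make. Actc1, the cardiac actin, overlapped between the vessels because aorta estrus replicate 1 held 56.6 FPKM, within the vein range of 24.9 to 96.6 FPKM, while the other 5 aorta libraries held 649 to 1243 FPKM.

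Genes that differ between atrium and ventricle were unequal in the aorta. Myl2, the ventricular regulatory light chain, reached 0.14 to 15.5 FPKM in the aorta against a median of 13812 FPKM in the heart libraries. Per unit of Tnnt2, the Myl2 level was between 0.000278 and 0.0317 in the 6 aorta libraries and 1.89 in the heart, as a ratio of medians. The reverse held for Myl7, with a ratio to Tnnt2 of 0.54 to 1.24 in the aorta and 0.000349 in the heart. Myl3, the ventricular essential light chain, had a median of 9.57 FPKM in the aorta and 6572 in the heart, and the ventricular factor Irx4 was listed at 0 to 0.04 FPKM in the aorta and at a median of 21.9 FPKM in the heart. The heart libraries themselves held little atrial RNA, with medians of 2.56 FPKM for Myl7, 0.705 for Sln and 4.12 for Myl4. Of the 6 tested genes of the ventricular list 5 were called higher in the aorta (median log2 fold change 2.25), but the highest of them, Mb and Ckmt2, are made in all striated muscle, and Myl2 was called in 2 of the 12 fits that each left out 1 library (limma adjusted p up to 0.109, and 0.0818 with the replicate number as a block).

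Transcription factors of the developing heart were called in both directions. Hand1 (-5.17), Hand2 (-4.36), Isl1 (-3.20) and Tbx2 (-1.24) were higher in the vein, Tbx20 (-0.55) did not pass the limits, and Tbx5, Gata4 and Nkx2-5 were higher in the aorta. Tbx5, a T-box factor of the atria and the limb, had a lowest, median and highest value of 1.68, 13.1 and 19.8 FPKM in the aorta and of 0.61, 0.86 and 1.65 FPKM in the vein. Gata4 ranged from 2.54 to 4.70 FPKM in the aorta and did not exceed 0.20 in the vein. Nkx2-5, the cardiac homeobox factor, ranged from 0.22 to 4.27 FPKM in the aorta and was listed at 0 in each of the 6 vein libraries. Tbx5, Gata4 and Nkx2-5 did not overlap between the vessels. Of 8 tested genes of the sinoatrial node list, which marks the pacemaker, none was called higher in the aorta by limma (with median-of-ratios scaling Tbx18 was), and Isl1 and Vsnl1, both also neuronal genes, were higher in the vein.

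The upstream windows of 2 heart muscle genes are shown because they hold a CArG box, the sequence bound by serum response factor in muscle genes. For Myl7 the window is chr11:5898783-5898902 of GRCm38.p6 (minus strand), with the box, in capitals, starting 61 bases before the start. For Actc1 it is chr2:114052876-114052995 (minus strand), with the box 47 bases before.
Myl7: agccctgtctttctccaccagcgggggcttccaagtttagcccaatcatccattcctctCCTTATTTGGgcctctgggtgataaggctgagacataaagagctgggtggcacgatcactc
Actc1: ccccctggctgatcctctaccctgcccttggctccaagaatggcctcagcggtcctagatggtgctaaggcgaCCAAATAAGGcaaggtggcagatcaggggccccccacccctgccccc

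On either strand, a CArG box occurred in 5.06% of the promoters of genes called higher in the aorta (9 of the 178 with a window), in 1.22% of those called higher in the vein, in 1.6% of those tested and in 1.81% of all promoters. Of the atrial and caval heart muscle list, 2 of the 13 members with a window held one, namely Myl7 and Actc1. These 2 are shown because they hold the box, and the match is a description of the letters. Of the contractile smooth muscle list, 3 of the 24 members with a window held one (Myl6, Myl9 and Vcl). None of those 3 was called, with log2 fold changes of 0.24 for Myl6, 0.09 for Myl9 and -0.04 for Vcl.

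Genes of the skeletal muscle list were higher in the aorta at lower levels. Of 13 tested genes 9 were called, where 1.84% of all tested genes were called, with a median log2 fold change of 2.35. The summed level was 148 to 645 FPKM in the aorta and 11.5 to 20.1 FPKM in the vein. Its median was 134680 FPKM in the skeletal muscle libraries and 2767 FPKM in the heart libraries. The part of heart muscle in the aorta level of this list was not tested. The highest aorta library was diestrus replicate 3, the one with airway RNA. Ckm, muscle creatine kinase, which heart muscle also makes, had medians of 105 FPKM in the aorta and 0.49 in the vein and did not overlap. Acta1, skeletal actin, ranged from 0.50 to 137 FPKM in the aorta and from 1.12 to 1.78 FPKM in the vein. That overlap sets Acta1 apart from the heart genes, and its call held in 7 of the 12 fits without 1 library (limma adjusted p up to 0.0855, and 0.0613 with the replicate number as a block).

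Brown fat genes were called in part and general fat cell genes mostly not. Adipoq, the fat cell hormone adiponectin, had a lowest, median and highest value of 104, 1043 and 1148 FPKM in the aorta and of 564, 1003 and 1476 FPKM in the vein, with a log2 fold change of -0.45 (limma adjusted p = 0.61). Fabp4, the fat cell fatty acid carrier, differed by 0.08. Ucp1, the uncoupling protein by which brown fat makes heat, had values of 205, 2065 and 2896 FPKM in the aorta and of 111, 390 and 755 FPKM in the vein. All aorta libraries but estrus replicate 1 lay above all vein libraries. The log2 fold change was 2.01 ± 0.669 (limma adjusted p = 0.0447), and 2.46 in the 10-library comparison. Ucp1 was called in 2 of the 12 fits that each left out 1 library, with limma adjusted p between 0.000519, without aorta estrus replicate 1, and 0.105, and its adjusted p was 0.0594 with equal replicate numbers as a block. The ratio of Ucp1 to Adipoq, which sets it against the fat in the same library, was 0.888 to 3.10 in the aorta and 0.124 to 0.852 in the vein, and it was 4.67 in brown and 0.00145 in white adipose tissue. The ratios of the vessels did not overlap, aorta estrus replicate 1 included, at 1.96. The ratio was chosen after its values were seen and is given without a test.

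Of 11 tested brown fat genes 5 were called higher in the aorta (median log2 fold change 1.44), against 1.84% of all tested genes. The count was 10 without aorta estrus replicate 1 alone, 3 without vein estrus replicate 3 or aorta diestrus replicate 3 alone, and 10 in the 10-library comparison, where the median was 1.83. Adrb3, the beta-3 adrenoceptor of fat cells, differed by -0.85 (limma adjusted p = 0.143). Cox7a1 and Cox8b, muscle and brown fat forms of cytochrome c oxidase subunits, had aorta medians of 902 and 2307 FPKM and vein medians of 155 and 612 FPKM. Cox7a1 was called (2.05 ± 0.574, limma adjusted p = 0.0197, and up to 0.0511 without 1 library), whereas Cox8b (1.44, adjusted p = 0.0696) and the lipid droplet protein Cidea (1.2, adjusted p = 0.204) were called only without the libraries that stood apart. Among 14 general fat cell genes 1 was called, Retn, which encodes the hormone resistin and had a median of 252 FPKM in the aorta and 1096 FPKM in the vein, without overlap. The list's median was -0.438 in all 12 libraries and 0.105 in the 10-library comparison. All 80 tested genes of oxidative phosphorylation had a positive log2 fold change, with a median of 0.847. Of these, 7 were called higher in the aorta, where 1.84% of all tested genes were called. With median-of-ratios scaling 24 were called and the median was 1.02. Aorta estrus replicate 1 held 14259 FPKM of the list, against 52265 to 64474 FPKM in the other 5 and 20666 to 32404 FPKM in the vein. Without that library alone 67 of the 80 were called, without vein estrus replicate 3 alone 4, and in the 10-library comparison 65.

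Among genes of the wall itself few were called. Of 28 contractile smooth muscle genes 5 were called. Tpm1, Des, Hspb6 and Pln were higher in the aorta and are also heart muscle genes, with heart medians of 10284, 934, 1580 and 3048 FPKM. Des, the filament protein desmin, had a limma adjusted p between 0.000133 and 0.0592 when 1 library was left out and was called in 8 of those 12 fits, and it was 0.0599 with the replicate number as a block. Sncg, gamma-synuclein, a protein of neurons as well, was higher in the vein, with medians of 35.3 and 536 FPKM. The genes made chiefly by smooth muscle did not pass the test. Acta2 had a median of 760 FPKM in the aorta and 1104 in the vein (log2 fold change 0.09, limma adjusted p = 0.936), Myh11, the smooth muscle myosin heavy chain, 237 and 296 FPKM, and Tagln, transgelin, 548 and 767 FPKM. The list's median was 0.14 in all 12 libraries, -0.348 without aorta estrus replicate 1 alone, 0.0704 without vein estrus replicate 3 alone and -0.362 in the 10-library comparison, in which Actg2, an actin of smooth muscle, was also called higher in the vein (-1.22).

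Elastin and the collagens did not separate the vessels. Eln, the elastin gene, ranged from 57.4 to 1239 FPKM in the aorta and from 63.3 to 402 FPKM in the vein, with medians of 173 and 147 FPKM, and differed by 0.36 ± 0.681. Of 20 tested genes of elastic fibres Mfap4 and Ltbp2 were called higher in the aorta. Mfap4, a microfibril protein, differed by 1.41 and was called in 1 of the 12 fits without 1 library and not in the 10-library comparison (0.998), while Ltbp2, which binds fibrillin fibres, differed by 1.11 and stayed called. Of 24 collagen genes 2 were called, both higher in the vein, a share near the 9.12% of all tested genes. These were Col28a1, a collagen of nerve sheaths, with medians of 1.41 FPKM in the aorta and 13.7 FPKM in the vein, and Col5a3, with medians of 5.74 and 20.0 FPKM. The main fibrillar collagens Col1a1 and Col3a1 differed by -0.57 and -0.37. Of 28 proteoglycan and glycoprotein genes, Prelp (1.06) and Sost (1.89) were called higher in the aorta, and the thrombospondins Thbs1 (-1.81) and Thbs4 (-1.14) higher in the vein. Sost, known as sclerostin, an inhibitor of Wnt signalling in bone, had medians of 46.2 and 17.2 FPKM, was highest in aorta estrus replicate 1, at 316 FPKM, and was called in 7 of the 12 fits without 1 library. Prelp was not called without aorta estrus replicate 1 (0.886).

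Endothelial genes known to tell arteries from veins were mostly not called. Of 20 arterial identity genes none was called in either direction by limma, and their median log2 fold change was -0.29. In the 10-library comparison 2 of them, Bmx (-1.02) and Hey2 (-1.4), were called higher in the vein. Efnb2, the arterial ephrin ligand, had medians of 9.47 FPKM in the aorta and 11.5 FPKM in the vein, Dll4, an arterial Notch ligand, 8.30 and 7.48 FPKM, and Sox17, an arterial transcription factor, 8.68 and 10.1 FPKM. Of 12 venous identity genes 2 were called, both higher in the vein, where 9.12% of all tested genes were called. The list's median was -0.57. Nr2f2, the transcription factor of venous endothelium, had a lowest, median and highest value of 16.9, 17.5 and 31.5 FPKM in the aorta and of 31.0, 46.3 and 69.2 FPKM in the vein. The groups overlapped only through aorta estrus replicate 1, and the difference was -1.18 ± 0.196 (limma adjusted p = 0.000746). Ackr1, a chemokine-binding protein of venules, had medians of 4.08 and 19.3 FPKM and did not overlap. Ephb4, the venous receptor of ephrins, differed by -0.30 and was not called.

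The 18 pan-endothelial genes had a median log2 fold change of -0.438, and 2 of them, Vwf and Plvap, were called higher in the vein, where 9.12% of all tested genes were called. Vwf, von Willebrand factor, ranged from 16.4 to 31.1 FPKM in the aorta and from 45.8 to 92.0 FPKM in the vein, without overlap. Plvap, a protein of the diaphragms of endothelial openings, had medians of 60.1 and 149 FPKM. Pecam1 differed by -0.76 and did not overlap either, yet stayed below the limit of 1, and Cdh5, the endothelial cadherin, differed by -0.23. Of 18 tested genes of clotting and its control, 3 were called higher in the vein (Vwf, Procr and Thbs1), against the same 9.12% of all tested genes. Procr, the endothelial receptor of protein C, had medians of 11 and 31.1 FPKM. Platelet genes moved beside these, with 6 of 7 tested members of the platelet list called higher in the vein and a summed level of 12.1 to 32.9 FPKM in the aorta and 50.6 to 162 FPKM in the vein. The erythroid list summed to 454 to 4882 FPKM in the aorta and 2742 to 12885 FPKM in the vein, and the part of blood in the clotting and platelet genes was not tested.

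Of 57 tested genes that set vascular tone 2 were called higher in the aorta and 8 higher in the vein, where 1.84% and 9.12% of all tested genes were called. The counts were 5 and 11 in the 10-library comparison. Agtr1a, the main angiotensin II receptor, had a lowest, median and highest value of 1.48, 8.29 and 11.3 FPKM in the aorta and of 20.4, 39.5 and 53.4 FPKM in the vein. Every vein library lay above every aorta library, and the difference was -2.19 ± 0.354 (limma adjusted p = 0.000594). The 3 alpha-2 adrenoceptors were all higher in the vein without overlap. Adra2a had medians of 0.82 FPKM in the aorta and 16.2 in the vein, Adra2b 0.255 and 3.83 FPKM, and Adra2c 0.35 and 4.74 FPKM. The sympathetic neuron list had the same order, and whether these 3 receptors come from the wall or from neurons was not tested. The alpha-1 receptors, which contract smooth muscle, did not pass the limits, with log2 fold changes of 0.66 for Adra1a, 0.87 for Adra1b and 0.75 for Adra1d. Without aorta estrus replicate 1, Adra1a (1.13) and Adra1b (1.03) were called higher in the aorta.

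The other tone genes higher in the vein were P2rx1, a receptor for ATP (-1.47), Gucy1a1, a subunit of the nitric oxide receptor (-1.2), the potassium channel Kcnq5 (-1.71) and Rgs4, which shortens receptor signals (-1.93). In each of the 4 the highest aorta value was that of estrus replicate 1, as with P2rx1, where it was 16.7 FPKM and the other 5 aorta libraries lay between 2.14 and 3.55. Without that library the difference was -1.91 for P2rx1 and -1.61 for Gucy1a1, but when other libraries were left out the limma adjusted p rose to as much as 0.0736 and 0.104, and the 2 genes were called in 3 and 2 of the 12 fits. In the aorta, Ptgfr, the receptor of prostaglandin F2 alpha, had a median of 4.86 FPKM against 0.60 in the vein (log2 fold change 1.84), and Ryr2, the calcium release channel of heart muscle, differed by 1.96. Nos3, the endothelial nitric oxide synthase, had medians of 18 FPKM in the aorta and 26.8 FPKM in the vein, which did not overlap but differed by less than the limit (-0.62). The enzyme Ace, which makes angiotensin II, differed by 0.07.

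Of 31 tested genes of TGF-beta and bone morphogenetic protein (BMP) signalling 7 were called, all higher in the vein, where 9.12% of all tested genes were called. Bmp4, a ligand, had medians of 11.9 FPKM in the aorta and 33.3 FPKM in the vein, and the related ligand Gdf10 23.4 and 54.1 FPKM. Secreted antagonists included Sostdc1 (1.54 and 21.9 FPKM), Chrdl1 (4.0 and 12.4 FPKM) and Fst, follistatin (4.41 and 16.4 FPKM). Id4, a transcriptional inhibitor induced by the pathway, was also among the 7, with a log2 fold change of -1.5. The median of the whole list was -0.168, close to that of all genes, and 0.000427 when libraries were scaled by median of ratios. Of 25 tested Notch and Wnt pathway genes 1 was called higher in the aorta and 2 higher in the vein, where 1.84% and 9.12% of all tested genes were called. The Wnt inhibitor Wif1 (2.37 and 0.35 FPKM) was higher in the aorta. The ligand Wnt6 (0.765 and 6.41 FPKM) and the antagonist Sfrp5 (7.75 and 76.3 FPKM) were higher in the vein. None of these 3 overlapped between the vessels.

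Hox genes, which record position along the body axis from early paralogue groups at the front to late ones at the rear, differed by their group and by their cluster. Of 27 tested Hox genes 1 was higher in the aorta and 10 higher in the vein, where 1.84% and 9.12% of all tested genes were called. Hoxc10 had a lowest, median and highest value of 0, 0.16 and 1.15 FPKM in the aorta and of 14.8, 18.4 and 25.0 FPKM in the vein. The groups were far apart, with a log2 fold change of -3.96 ± 0.191 (limma adjusted p = 2.99e-08). Hoxc9 had medians of 0.305 and 13 FPKM, and Hoxa10 medians of 0.18 and 7.57 FPKM. In paralogue groups 9 and 10, 5 of 6 tested genes were called higher in the vein, with a median log2 fold change of -2.61. In groups 6 to 8, 3 of 8 were called higher in the vein, with a median of -0.438. Those 3 were Hoxc6, Hoxc8 and Hoxd8, and no tested gene of the Hoxa or Hoxb cluster in these groups was called.

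Groups 1 to 5 had the opposite median, 0.394 over 13 tested genes, of which 1 was called higher in the aorta and 2 higher in the vein. Hoxa4 had medians of 19.2 FPKM in the aorta and 5.29 FPKM in the vein (1.51 ± 0.248, limma adjusted p = 0.000666). Hoxa5 (0.69) and Hoxb4 (0.92) did not overlap between the vessels but stayed below the limit of 1. Hoxc4 (-0.86) did not overlap or reach the limit either, but was higher in the vein. The 2 early genes higher in the vein, Hoxd3 (-1.28) and Hoxd4 (-1.29), belong to the Hoxd cluster, whose 4 tested genes were all called higher in the vein. Hoxa11 and Hoxd10 fell below the limit for testing, with vein values of 0.54 to 2.72 and 0.51 to 1.57 FPKM and aorta values of at most 0.08 and 0.18 FPKM. Hoxc10 also had a median of 79.3 FPKM in the skeletal muscle libraries of the atlas.

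**Figure D5:**
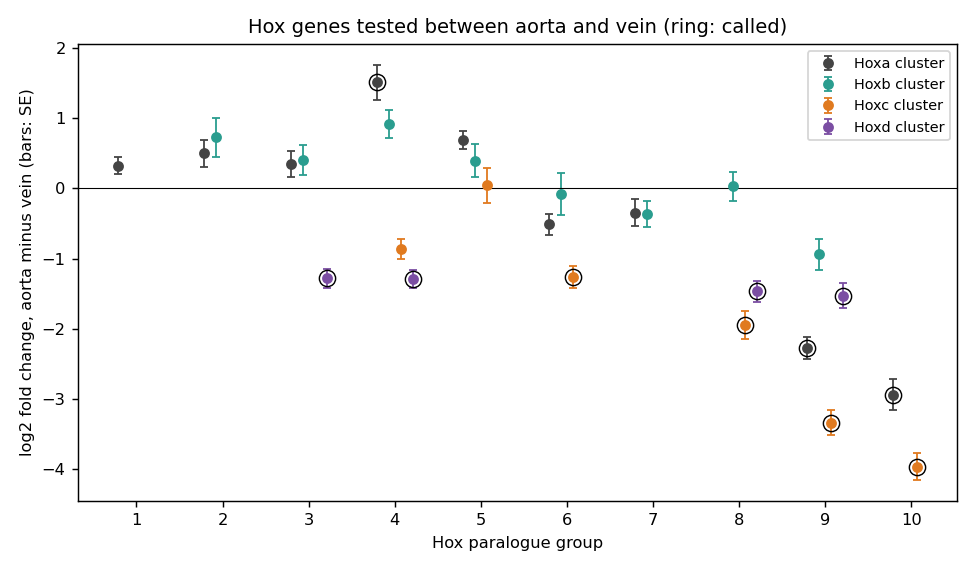
log2 fold change (aorta minus vein) with its standard error for 27 Hox genes, by paralogue group on the x axis and coloured by cluster, with a ring around the 11 called genes. Genes of groups 9 and 10 lie below 0, and Hoxa4 is the ringed gene above it.

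Of 30 tested positional transcription factors outside the Hox clusters, 3 were higher in the aorta (Tbx5, Gata4 and Nkx2-5) and 4 higher in the vein (Hand1, Hand2, Isl1 and Tbx2). Over all tested genes the shares in these directions were 1.84% and 9.12%. Tbx2, a T-box repressor of chamber genes in the heart, had medians of 3.75 and 12.6 FPKM without overlap. Wt1, a factor of the epicardium and mesothelium, ranged from 0.59 to 2.01 FPKM in the aorta and from 0.12 to 0.21 FPKM in the vein and was too low to be tested. Of 9 tested genes of mesothelium, the lining of the body cavities, Upk3b, Msln and Upk1b were called higher in the aorta. Upk3b had a lowest, median and highest value of 0.83, 3.89 and 25.9 FPKM in the aorta and of 0, 0.035 and 0.32 FPKM in the vein. Msln, mesothelin, had medians of 4.26 and 0.05 FPKM.

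Receptors of the sex steroids, whose hormones define the phases sampled, did not pass the limits. Esr1, estrogen receptor alpha, had a lowest, median and highest value of 7.63, 10.0 and 11.5 FPKM in the aorta and of 10.3, 11.9 and 15.4 FPKM in the vein (log2 fold change -0.26, limma adjusted p = 0.0796). Gper1, a membrane receptor of estrogen, was separate in the 2 vessels, at 1.00 to 1.34 FPKM in the aorta and 2.26 to 3.74 FPKM in the vein, with a difference of -0.92 ± 0.103 (limma adjusted p = 3.35e-05) that falls short of the limit on size. Pgrmc1, a progesterone-binding membrane protein, differed by -0.52. Pgr, the progesterone receptor, and Esr2, estrogen receptor beta, averaged under 1 FPKM over the 12 libraries and were not tested.

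The difference between the vessels was also compared between the phases. The interaction of tissue and phase gave 0 of 13225 genes past the limits (0%) by limma, and 432 genes had an unadjusted p under 0.05. That is a smaller share than the 0.05 of tested genes that would fall there on average with no interaction. The 3 genes with the smallest p were Tmtc1, Rasl10b and Cacna2d3. Cacna2d3, a calcium channel subunit of neurons, was at 0.68, 0.73 and 0.83 FPKM in estrus and at 0.67, 0.52 and 0.53 FPKM in diestrus in the aorta. In the vein it was at 3.86, 2.29 and 2.57 FPKM in estrus and at 5.69, 4.95 and 6.12 FPKM in diestrus, so that the phases did not overlap in either vessel. The aorta minus vein difference was 0.92 ± 0.232 higher in estrus on the log2 scale, with a limma adjusted p of 0.696. The vein estrus libraries with low Cacna2d3, replicates 2 and 3, were also those with the lowest sympathetic neuron levels. Within the phases taken alone, 92 genes in estrus and 590 in diestrus were called higher in the aorta, and 793 and 1433 higher in the vein. Aorta estrus replicate 1 is 1 of the 3 aorta libraries in the estrus comparison.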

How the data were processed

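RNA from aorta and vein of female mice was sequenced on the BGISEQ-500, with 3 mice per phase. The authors cleaned reads with SOAPnuke. The submitters' processing notes name Bowtie2 2.2.5, RSEM 1.2.8 and GRCm38.p5. The deposited table holds 1 FPKM value per gene and library, normalized by the authors for length and depth. RSEM shares reads between near-identical genes, so paralogues with common sequence (hemoglobins, some Hox and actin genes) are less certain. The table names no unit; FPKM was inferred from RSEM and from column sums. Of 20414 genes, 20265 had a symbol, no mitochondrial gene is listed, and no column was left unmapped (0). Depth per library is not given. The study's methods state an approximate number of reads generated per sample, which is larger than the counted fragments estimated here. The estimate used steps between low values (933 genes of 300 to 1100 bases, up to 10 reads), of which 56.2 to 68.6% were within 0.2 reads of a whole number. Values without steps would also fall within that distance in part, so that the estimate is approximate and no counts were recovered.

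FPKM with a pseudocount of 1 was taken to log2 and fitted with limma 3.58.1 in R 4.3.3, with tissue and phase as terms and an intensity trend, over the 13225 genes that averaged 1 FPKM or more in the 12 libraries. Calls needed an absolute log2 fold change of at least 1 and a Benjamini-Hochberg adjusted p of at most 0.05 over all genes tested. Gene lists are described by counts and medians, without a set test. Named genes are the 12 with the largest fold change in each direction that did not overlap and held without aorta estrus replicate 1 and vein estrus replicate 3, any member of a vascular, positional or hormone list, the 4 most abundant members of each other list, and the 3 with the smallest interaction p. Outside this rule, Pnmt, Slc18a2, Chrna3, Phox2a, Chgb, Scg2, S100b, Dkk3, Myl2, Irx4, Adipoq, Retn, Msln and Upk1b were named after their values were seen. The members and lists were chosen with earlier results of these data known. Alternatives changed the pseudocount (0.1 and 5), the filter (none and 5 FPKM), the scaling, the model terms, the phases and the libraries. Some genes that the rule names are not reported here. Promoters came from RefSeq on GRCm38.p6 and covered 10464 of the tested genes. Figures were drawn in Python 3.11.15 with matplotlib 3.10.9.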

Additional observations from a re-analysis of the deposited data

Results flagged for a closer look

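For each summed marker list that reached 100 FPKM and each leading gene that reached 1 FPKM in a vessel, the highest or lowest of the 6 libraries was compared with its neighbour. The gap to the nearest other library was divided by the range of all 6, and a ratio over Dixon's critical value for 6 libraries was taken as a library far from the others. Of 106 groups of 6 libraries, 33 passed. The groups come from the same libraries and some lists share genes, so that the 33 are not independent. That number therefore cannot be set against a chance rate, and the same few libraries recur among the 33.

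Aorta estrus replicate 1 was the highest library for contractile smooth muscle (ratio 0.924), elastic fibres (0.78), collagens (0.772), proteoglycans (0.854), vascular tone (0.732), clotting control (0.805), Notch and Wnt genes (0.644), positional transcription factors (0.737), steroid receptors (0.625), pericytes (0.798), adrenal cortex (0.937), chondrocytes (0.843) and immediate early genes (0.785). Its adrenal cortex list summed to 296 FPKM, with 110 FPKM of Cyp11a1 and 134 FPKM of Hsd3b1, both enzymes of steroid synthesis, while the next aorta library held 68.0 FPKM of the list and no other library reached 1 FPKM of either gene. The same library was the lowest for fat cells (0.874), oxidative phosphorylation (0.757), ventricular heart muscle (0.695) and the single gene Mb (0.677).

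Aorta diestrus replicate 3 was the highest for the airway list (0.998, with 1047 FPKM of Scgb1a1, a secretoglobin of airway club cells), simple epithelium (0.907), skeletal muscle (0.659), Schwann cells (0.628) and interferon response (0.783). It was also the highest aorta library for the neuronal genes Snap25 (0.821, at 1.84 FPKM), Pcsk1n (0.778), Prph (0.71), Stmn3 (0.706) and Tubb3 (0.679, at 4.22 FPKM), all far under the vein values. Vein estrus replicate 3 was the highest for B cells (0.986), T cells (0.925, at 164 FPKM) and plasma cells (0.695). Vein diestrus replicate 1 was the highest for steroid receptors (0.676). Vein diestrus replicate 2 held the most Myh6 (0.838, at 1.66 FPKM) and Tnnt2 (0.688, at 6.71 FPKM) of the vein libraries.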

How the results depend on the processing

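The number of genes higher in the aorta, 243 in the report, was 135 with a pseudocount of 5, 152 with a filter at a mean of 5 FPKM, 98 at an absolute log2 fold change of at least 2, 92 in estrus and 590 in diestrus alone. Without 1 library it ranged from 209 to 464, the highest without aorta estrus replicate 1, and it was 451 without that library and vein estrus replicate 3, and 444 without aorta diestrus replicate 3 too, an alternative chosen after the data were seen. The number higher in the vein, 1206, was 582, 663, 463 and 793 under the first 3 of these settings and in estrus alone, 1433 in diestrus alone, and 1124 to 1321 without 1 library. The interaction had 0 genes past the limits, and 1 without aorta estrus replicate 1 (0 to 1 without 1 library). Median-of-ratios scaling moved the median log2 fold change of all genes from -0.108 to 0.041 and gave 320 and 1056 calls, and quantile normalization moved it to 0.098 with 344 and 977 calls. None of the 135 tested genes checked singly reversed after being called. Of the 95 called, 85 were called in each fit without 1 library and 10 were lost in some. The leading genes among them were chosen because they did not overlap and held without aorta estrus replicate 1 and vein estrus replicate 3. These counts therefore do not describe all 1449 calls. Of the list counts, taken in both directions for every list, 620 stayed within 1.5 times. Most of these were 0 in both fits, so that 620 does not measure how stable the lists with calls were. The 52 that moved by more include brown fat, oxidative phosphorylation, vascular tone, mesothelium and erythroid genes, most of them when the libraries that stood apart were left out. The replicate block, with equal numbers of aorta and vein as pairs, gave 236 and 1217 calls, 1433 of them among the 1449 first called. The deviations of same-numbered libraries correlated at 0.258, 0.372 and -0.0056 in estrus and 0.451, 0.0685 and 0.326 in diestrus, with means of 0.245 for equal and -0.117 for different numbers, and 9 of the 12 libraries correlated best with their own number. Since 2 pairs fell under 0.1 and no source ties the numbers to mice, the numbers were not treated as pairs, which leaves the calls named next uncertain. Under the block Ucp1 had a limma adjusted p of 0.0594, Acta1 of 0.0613, Des of 0.0599 and Myl2 of 0.0818. Depth is known only approximately, genes averaging under 1 FPKM were not tested, and 6 libraries a vessel, with 3 of the 12 standing apart, limit the precision of every value.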

Other observations

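Genes of blood and lymph vessels stood beside the endothelial ones. Of 6 tested erythroid genes 2 were called higher in the vein, and 6 without the 3 libraries that stood apart. The alpha globin Hba-a1 had medians of 1336 and 3065 FPKM (log2 fold change -1.38, limma adjusted p = 0.0776). Of 8 lymphatic endothelium genes 3 were called higher in the vein, where 9.12% of all tested genes were called. Ccl21a, the chemokine of lymph vessels and lymph nodes, had medians of 17.4 and 88.2 FPKM, was called (limma adjusted p = 0.048) but not without the libraries that stood apart, and had its highest values in aorta diestrus replicate 3 (262 FPKM) and vein estrus replicate 3 (266 FPKM). Of 13 tested interferon response genes 3 were called higher in the vein, against the same 9.12% of all tested genes. Without the libraries that stood apart 5 were called, and the list's median in all 12 libraries was -0.722. Cxcr4, a chemokine receptor of endothelium, leukocytes and neurons, had medians of 3.48 and 29.4 FPKM without overlap. It was named after its values were seen.

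None of 14 adventitial fibroblast genes passed the limits by limma (median -0.176), although Gsn, the actin-severing protein gelsolin, lay at 445 to 790 FPKM in the aorta and 963 to 1296 FPKM in the vein without overlap (log2 fold change -0.89). Dsp, desmoplakin, a protein of the junctions between heart muscle cells and between epithelial cells, ranged from 7.85 to 18.8 FPKM in the aorta and from 0.94 to 3.04 FPKM in the vein (log2 fold change 2.51, limma adjusted p = 7.99e-06). Trf, transferrin, which liver and fat make, ranged from 15.4 to 120 FPKM in the aorta and from 148 to 438 FPKM in the vein (log2 fold change -2.16).

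Clock genes did not separate the vessels, with 0 of 16 tested members past the limits by limma and a median log2 fold change of 0.00212 (1 called higher in the aorta with median-of-ratios scaling), but they set apart diestrus replicate 1 in both. Arntl, a core activator of the clock, was at 15.4 FPKM in aorta and 12.9 FPKM in vein diestrus replicate 1, and at 0.19 to 7.13 and 0.99 to 4.10 FPKM in the other 5 libraries of each vessel. Dbp, an output gene of the clock that runs opposite to Arntl, was at 2.51 and 4.6 FPKM in these 2 libraries, and at 55.6 to 254 and 73.9 to 252 FPKM in the others. Arntl was chosen after its values were seen. The time of day at which tissue was taken is not given in the sources used here.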
